A study of Mus musculus with 12 samples.

Results

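The 9 genes described here encode enzymes that make, interconvert or break down glutamine, glutamate and proline. They are Gls2, Glul, Glud1, Got1, Got2, Gpt2, Pycr1, Aldh18a1 and Prodh. They were picked by gene symbol for what their enzymes do, and all 9 were present among the 24982 genes listed for each library. In cells, glutaminase frees glutamate from glutamine and glutamine synthetase runs the opposite reaction. Glutamate passes its nitrogen to other amino acids through aminotransferases, or loses it as ammonia through glutamate dehydrogenase, and in both cases its carbon can enter the citric acid cycle as alpha-ketoglutarate. Proline is built from glutamate in mitochondria and is broken down there by proline dehydrogenase, so that the pathways form a loop that moves electrons as well as carbon. Glutamine use is a much studied feature of cells with high MYC.

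Splenic B lymphocytes were taken from mice at 6 weeks of age and their RNA was sequenced. There were 3 groups of 4 libraries: WT mice, which the series describes as C57BL/J6, Eμ-Myc transgenic mice, and transgenic mice without PRPS2 as well. In the Eμ-Myc transgene the immunoglobulin heavy chain enhancer drives Myc in B lineage cells, and both transgenic groups carried it. No group lacked PRPS2 without the transgene, so the loss of PRPS2 was measured on the Eμ-Myc background alone. PRPS2 is one of the enzymes that make phosphoribosyl pyrophosphate, a precursor of nucleotides. The group without it is called the knockout group here, and how its allele was made, and whether any mice had lymphoma, are not given in the sources used here. The labels call the libraries biological replicates without saying whether each came from a single mouse, so p-values measure the spread between these libraries.

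Values are taken, from the file names and the numbers, to be mean coverage per base of each gene, here divided by 1 scaling factor per library, and are called scaled coverage. Levels of different genes are set side by side on that reading, and whether the values were normalized before deposit is not given in the sources used here. Summed coverage ran from 1277305.5 to 1885768.9 per library. How many reads lie behind each value is unknown, and precision was taken from the spread between libraries. A gene was called when the adjusted p of limma's moderated test was below 0.05 over all genes tested in the comparison. Fold changes are differences of log2(scaled coverage + 0.5), which understate the change of genes with low coverage. Means are given ± SD with n = 4 libraries.

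The targeted gene matched the labels. Scaled coverage of Prps2 was 126 ± 21.1 in WT and 245 ± 37.3 in Eμ-Myc, and lay between 16.1 and 18.6 in the 4 knockout libraries. Myc was 272 ± 51.2, 1908 ± 301 and 2277 ± 1027 in these groups. The 8 B cell markers summed to 6530 to 13050 in WT, 7688 to 9501 in Eμ-Myc and 7156 to 7818 in knockout libraries, and 1 of them fell in Eμ-Myc against WT. Markers of other cells were present to differing degrees. The 8 T cell markers found summed to 516 to 2903 in WT and 105 to 149 in Eμ-Myc. In knockout libraries 1 to 4 they summed to 630, 678, 33.0 and 30.3. The 6 NK cell markers followed the same split, at 437, 318, 19.4 and 18.0 in the knockout libraries, 277 to 1084 in WT and 74.1 to 181 in Eμ-Myc. The 9 myeloid markers reached 15719 and 11533 in knockout libraries 1 and 2 but 3021 and 1316 in libraries 3 and 4. Their sums were 8237 to 24223 in WT and 5795 to 16832 in Eμ-Myc. The 9 erythroid markers summed to 847 in WT library 4 and 514 in Eμ-Myc library 3, and to 78.5 to 276 in the other 10 libraries. The 5 plasma cell markers summed to 500 to 710 in WT and 495 to 582 in Eμ-Myc, where 2 of them fell, and to 500, 595, 244 and 273 in knockout libraries 1 to 4. The 5 immature B cell markers summed to 7.98 to 20.1 in WT, 39.5 to 73.7 in Eμ-Myc and 28.8 to 42.7 in knockout libraries. In Eμ-Myc against WT all 8 T cell and 6 NK cell markers fell, 4 of the 5 immature B cell markers rose, and the part of these shifts in the results was not tested. No marker on these lists was at 0 in every library. In these bulk samples, fewer cells of a type and less RNA per cell cannot be told apart. Knockout libraries 1 and 2 stood apart from libraries 3 and 4 across the transcriptome, so the values of single knockout libraries are given for the enzymes that were called.

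RNA of 7 of the 9 enzymes was called higher in the Eμ-Myc than in the WT libraries, relative to other genes. Pycr1, which makes proline, and Prodh, which breaks it down, had the largest folds of the 9: their mean scaled coverage was 9.18 and 7.21 times the WT mean. Aldh18a1, which starts proline synthesis, was at 2.33 times. Both aspartate aminotransferases, the alanine aminotransferase Gpt2, Aldh18a1 and the glutaminase Gls2 also rose. Glutamine synthetase (Glul) and glutamate dehydrogenase (Glud1), the most abundant of the 9 in WT cells, were not called. In each of the 7 called genes, all 4 Eμ-Myc libraries lay above all 4 WT libraries. In this comparison 54.9% of the 12704 genes tested were called, 29.9% as higher and 25% as lower, and 28.1% were higher without overlap between groups. The median log2 fold change was 1.21 over the 9 enzymes and -0.02 over all genes tested. All 9 passed the filter on low coverage. Gls2, Gpt2 and Pycr1 did so through the Eμ-Myc libraries, since several of their WT values were below 1, whereas the other 6 were above 1 in every library, and 4 of those 6 were called. Of all called genes 54.4% were higher with the scaling used here and 42.0% with scaling to total coverage, which moved the median of all genes by -0.17. The same 7 enzymes were called, and higher, under both scalings and under median-of-ratios scaling.

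**Figure D1:**
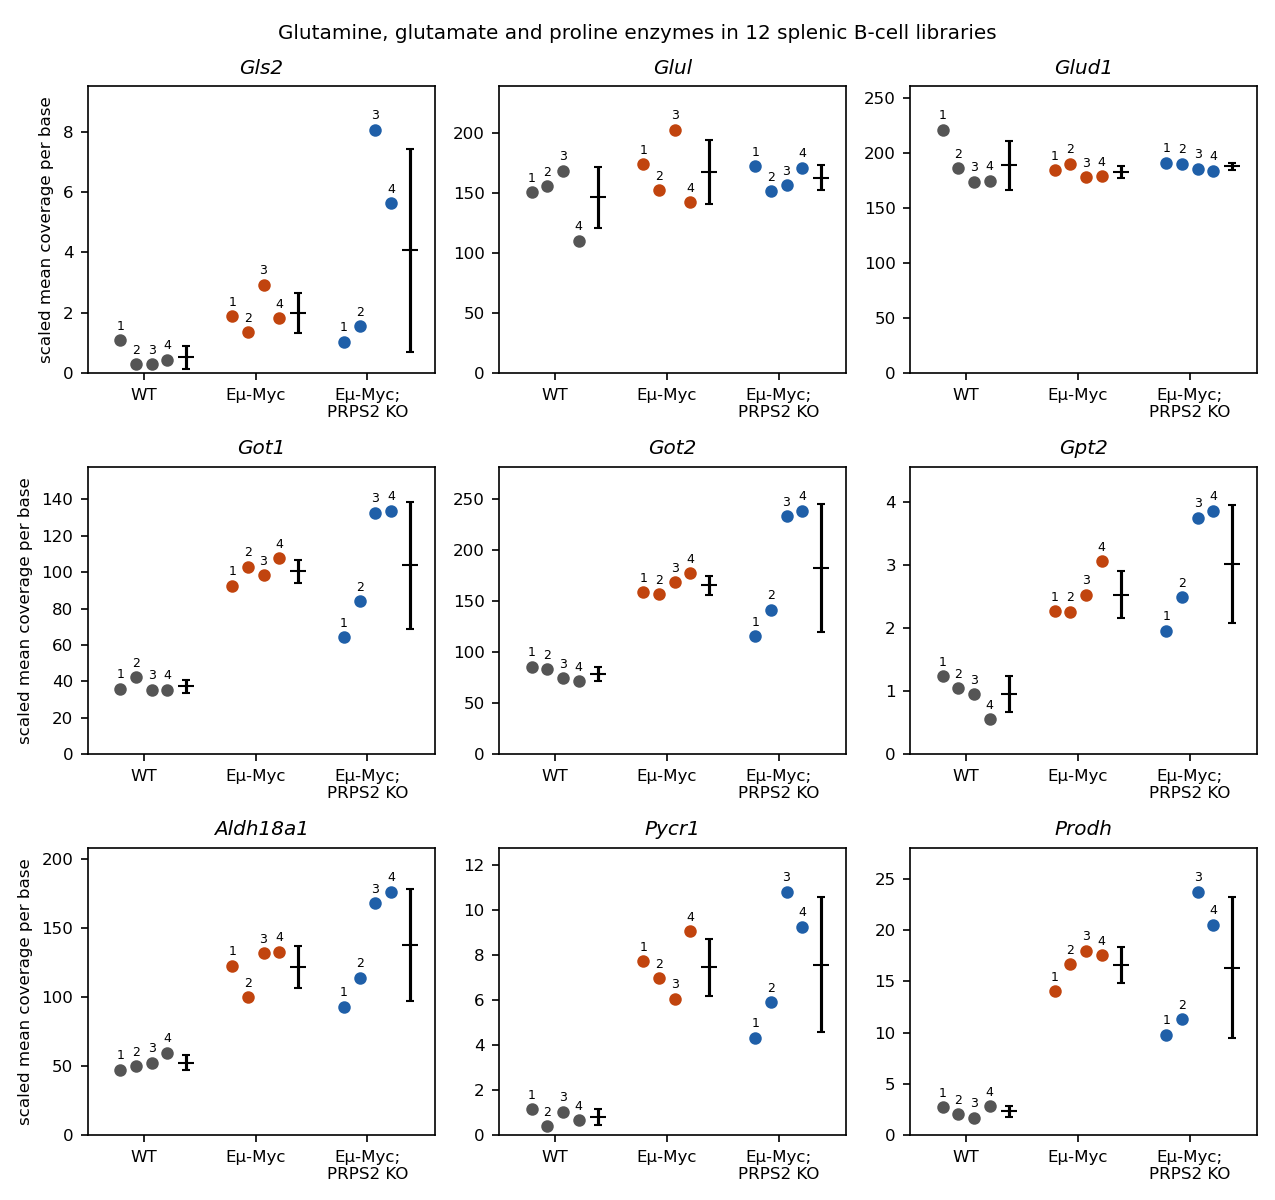
Scaled coverage of each of the 9 enzymes in the 12 libraries (vertical axes, scaled mean coverage per base from 0; points are single libraries numbered 1 to 4, black bars are group means ± SD). In 7 panels every Eμ-Myc point is above every WT point, Glul and Glud1 show overlapping groups, and the knockout points are the most spread in most panels.

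The start of proline synthesis is carried by Aldh18a1, the bifunctional mitochondrial enzyme that reduces glutamate. The gene lies on the minus strand at chr19:40550257-40588463 (GRCm38). Scaled coverage was 47.4, 49.9, 52.6 and 59.7 in WT libraries 1 to 4, 123, 99.99, 132 and 133 in Eμ-Myc, and 93.1, 114, 168 and 176 in knockout libraries. Every transgenic library was above every WT library, and the knockout libraries lay on both sides of the Eμ-Myc range. Against WT, the log2 fold change was 1.21 ± 0.12 (SE) in Eμ-Myc, with a 95% confidence interval from 0.93 to 1.48 and an adjusted p of 4.24e-05 (limma). The knockout group had 1.34 ± 0.22, with an interval from 0.84 to 1.84 and an adjusted p of 0.00996.

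Pycr1, the mitochondrial reductase that finishes proline, lies on the minus strand at chr11:120635712-120643769. It was close to the rounding step of the values in WT, at 1.16, 0.38, 1.05 and 0.67 in libraries 1 to 4. It reached 7.74, 6.97, 6.07 and 9.07 in Eμ-Myc, and 4.33, 5.92, 10.8 and 9.28 in knockout libraries. Both transgenic groups were clear of WT. The log2 fold change was 2.63 ± 0.25 in Eμ-Myc (interval 2.08 to 3.18, adjusted p = 2.64e-05) and 2.59 ± 0.34 in the knockout group (interval 1.80 to 3.38, adjusted p = 0.00877). In Eμ-Myc against WT, Pycr1 ranked 190 from the top of the 12704 log2 fold changes.

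Prodh, proline dehydrogenase, starts proline breakdown at the inner mitochondrial membrane and is known as a gene induced by p53. It lies on the minus strand at chr16:18060357-18090203. Scaled coverage was 2.70, 2.00, 1.71 and 2.79 in WT, 14.1, 16.7, 18.0 and 17.6 in Eμ-Myc, and 9.80, 11.3, 23.8 and 20.5 in knockout libraries. WT libraries were again all lowest, and the knockout libraries lay below and above the whole Eμ-Myc range. Its log2 fold change was 2.62 ± 0.19 in Eμ-Myc (interval 2.20 to 3.04, adjusted p = 5.85e-06) and ranked 193 of 12704. The knockout group had 2.51 ± 0.32 (interval 1.77 to 3.26, adjusted p = 0.00877).

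The start regions of these 3 proline genes are shown because the genes were higher together in both groups that carry the Myc transgene. Each runs 5′ to 3′ on the gene's strand, from 250 bases before to 50 bases after the RefSeq start in GRCm38.p6. They lie at chr19:40588414-40588713 for Aldh18a1, chr11:120643699-120643998 for Pycr1 and chr16:18089141-18089440 for Prodh, all on the minus strand. Capitals mark CACGTG, the canonical E-box, which reads the same on both strands.
Aldh18a1: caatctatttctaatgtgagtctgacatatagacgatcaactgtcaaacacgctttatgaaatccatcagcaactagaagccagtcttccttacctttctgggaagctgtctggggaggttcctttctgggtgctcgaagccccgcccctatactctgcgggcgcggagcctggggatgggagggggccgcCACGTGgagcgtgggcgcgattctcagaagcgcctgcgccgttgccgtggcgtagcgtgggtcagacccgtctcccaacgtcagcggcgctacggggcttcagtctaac
Pycr1: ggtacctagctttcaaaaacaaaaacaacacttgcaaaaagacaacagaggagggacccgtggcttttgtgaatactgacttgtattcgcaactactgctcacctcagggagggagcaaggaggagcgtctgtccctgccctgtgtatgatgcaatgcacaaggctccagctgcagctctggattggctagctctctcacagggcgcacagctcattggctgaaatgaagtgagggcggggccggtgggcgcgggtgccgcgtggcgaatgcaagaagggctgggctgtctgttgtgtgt
Prodh: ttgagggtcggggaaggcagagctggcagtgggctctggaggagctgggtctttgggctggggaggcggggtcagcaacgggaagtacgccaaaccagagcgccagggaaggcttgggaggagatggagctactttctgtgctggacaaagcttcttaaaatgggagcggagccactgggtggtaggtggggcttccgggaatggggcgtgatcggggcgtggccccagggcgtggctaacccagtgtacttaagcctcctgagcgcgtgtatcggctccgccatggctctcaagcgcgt
Aldh18a1 held a single CACGTG, starting at position -59 from its start, and Pycr1 and Prodh held none in this window. The Prodh window lay wholly within the gene span given above, so the region of its GENCODE M21 start at 18090203 was not searched. Of the 8 enzymes with an entry in the promoter table, Aldh18a1 alone had the motif, and Gls2 had no entry. The same letters were found in 7.15% of all 32851 start regions of this length and in 9.99% of the 12529 that belong to genes tested in Eμ-Myc against WT. Presence or absence of these letters is a description of the sequence, since binding was not measured.

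Within single libraries the proline genes did not all keep the same proportions. The log2 ratio of Pycr1 to Prodh, with 0.5 added to each, was -1.12 ± 0.48 in WT, -1.11 ± 0.30 in Eμ-Myc and -1.04 ± 0.11 in knockout libraries, and the 3 groups overlapped. Among knockout libraries, where each gene ranged more than in the other groups, this ratio stayed between -1.11 and -0.88. The added 0.5 was of the size of Pycr1 in WT (0.38 to 1.16), so the WT ratio of Pycr1 to Prodh depended on it. Without it, the Eμ-Myc mean was 9.18 times the WT mean for Pycr1 and 7.21 times for Prodh. The log2 ratio of Pycr1 to Aldh18a1 was -5.37 ± 0.47 in WT, -3.95 ± 0.26 in Eμ-Myc and -4.13 ± 0.16 in knockout libraries. All transgenic libraries were above all WT libraries. The size of that shift depended on the pseudocount, and was 1.42 with 0.5, 1.92 with 0.1 and 0.57 with 2. These ratios are descriptions with no test.

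**Figure D2:**
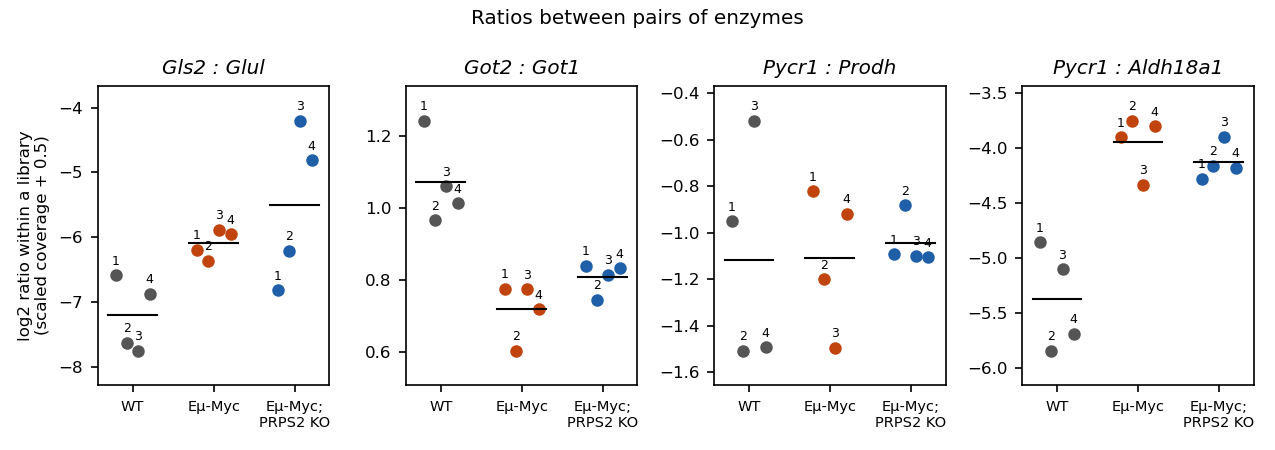
Log2 ratios within each library for Gls2 to Glul, Got2 to Got1, Pycr1 to Prodh and Pycr1 to Aldh18a1 (vertical axes, log2 of the ratio of scaled coverage + 0.5; points are libraries, bars are group means). Pycr1 to Prodh overlaps in all 3 groups, whereas Got2 to Got1 is highest and Pycr1 to Aldh18a1 lowest in the 4 WT libraries.

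Among the enzymes that move amino groups, Got1 is the cytosolic and Got2 the mitochondrial aspartate aminotransferase, and together they carry the malate-aspartate shuttle. Got1, on the minus strand at chr19:43499752-43524605, had a scaled coverage of 35.9, 42.3, 35.4 and 35.3 in WT and 92.5, 103, 98.5 and 108 in Eμ-Myc. Knockout libraries 1 to 4 had 64.4, 84.2, 133 and 134. Got2, on the minus strand at chr8:95864134-95888547, had 85.6, 83.0, 74.2 and 71.6 in WT, 159, 157, 169 and 178 in Eμ-Myc, and 116, 141, 233 and 239 in knockout libraries. In both genes the 4 Eμ-Myc libraries were within a narrow band above WT, and the knockout libraries fell below that band in libraries 1 and 2 and above it in libraries 3 and 4. In Eμ-Myc against WT the log2 fold change was 1.42 ± 0.10 for Got1 (interval 1.19 to 1.65, adjusted p = 5.85e-06) and 1.07 ± 0.10 for Got2 (interval 0.85 to 1.29, adjusted p = 2.31e-05). For the knockout group against WT it was 1.40 ± 0.24 for Got1 (interval 0.85 to 1.96, adjusted p = 0.0109) and 1.14 ± 0.25 for Got2 (interval 0.58 to 1.71, adjusted p = 0.0200). The latter call was lost in 6 of 8 fits without 1 library, at adjusted p from 0.0515 to 0.0627.

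RNA of the cytosolic form, Got1, gained on that of the mitochondrial form, Got2. The log2 ratio of Got2 to Got1 was 1.07 ± 0.12 in WT, 0.72 ± 0.08 in Eμ-Myc and 0.81 ± 0.04 in knockout libraries. All 8 transgenic libraries, between 0.60 and 0.84, were below the 4 WT libraries, between 0.97 and 1.24. Coverage of Got2 remained above that of Got1 in every library, and protein was not measured.

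Gpt2, the mitochondrial alanine aminotransferase, was much less abundant. It lies on the plus strand at chr8:85492576-85527560. Scaled coverage was 1.23, 1.05, 0.95 and 0.56 in WT, 2.27, 2.26, 2.53 and 3.06 in Eμ-Myc, and 1.96, 2.49, 3.76 and 3.87 in knockout libraries. No transgenic library overlapped with WT. The log2 fold change against WT was 1.08 ± 0.22 in Eμ-Myc (interval 0.59 to 1.57, adjusted p = 0.00252) and 1.26 ± 0.28 in the knockout group (interval 0.62 to 1.91, adjusted p = 0.0215). The knockout call was lost in 5 of 8 fits without 1 library, at adjusted p from 0.0505 to 0.0690, and with the replicate number as a block (0.0590). Gpt, the cytosolic alanine aminotransferase, was not called, with means of 5.78 ± 1.33, 5.98 ± 1.44 and 6.33 ± 1.08 in WT, Eμ-Myc and the knockout group.

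Glud1, glutamate dehydrogenase, takes the amino group off glutamate in the mitochondrial matrix. It lies on the plus strand at chr14:34310727-34345265 and varied least of the 9 over the 12 libraries together, though not within WT. Scaled coverage ranged from 174 to 221 in WT, 178 to 190 in Eμ-Myc and 184 to 191 in knockout libraries. The Eμ-Myc log2 fold change against WT was -0.04 (interval -0.27 to 0.19, adjusted p = 0.753, limma). For the knockout group it was within 0.01 of 0 (interval -0.27 to 0.26, adjusted p = 0.990).

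Glul, glutamine synthetase, makes glutamine from glutamate and ammonia. It lies on the plus strand at chr1:153899944-153909723. Scaled coverage was 110 to 169 in WT, 142 to 203 in Eμ-Myc and 152 to 172 in knockout libraries, so all 3 groups overlapped. The log2 fold change against WT was 0.20 in Eμ-Myc (interval -0.15 to 0.56, adjusted p = 0.300) and 0.17 in the knockout group (adjusted p = 0.369), and neither was called.

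Gls2, the liver-type glutaminase and another gene known to be induced by p53, was the least abundant of the 9 in WT cells. It lies on the plus strand at chr10:128194457-128210004. Scaled coverage was 1.08, 0.29, 0.29 and 0.45 in WT, 1.89, 1.36, 2.94 and 1.81 in Eμ-Myc, and 1.03, 1.56, 8.07 and 5.63 in knockout libraries. Eμ-Myc libraries were all above WT, but knockout library 1 lay below WT library 1. The deposited values of WT libraries 2 and 3 were both 0.3, and values are rounded to steps of 0.1, so the fold is coarse. The log2 fold change was 1.31 ± 0.30 in Eμ-Myc (interval 0.65 to 1.98, adjusted p = 0.00442), and the adjusted p was 0.0546 when all 12 libraries shared a single fit. It was 1.87 ± 0.58 in the knockout group (interval 0.54 to 3.21, adjusted p = 0.0451). This call was lost without any single WT library and without knockout library 3 or 4, with adjusted p from 0.0726 to 0.122. The Eμ-Myc value depended on the pseudocount. It was 1.86 with 0.1 and 0.66 with 2, and Gls2 was called with both.

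The log2 ratio of Gls2 to Glul was -7.21 ± 0.57 in WT and -6.10 ± 0.22 in Eμ-Myc, without overlap. Knockout libraries ran from -6.82 to -4.20 and overlapped with both.

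The order of mean levels was the same in WT and Eμ-Myc cells apart from Pycr1 and Gpt2, while the gaps between levels differed. In WT, Glud1 (189 ± 22.2) and Glul (146 ± 25.2) led, followed by Got2 (78.6 ± 6.75), Aldh18a1 (52.4 ± 5.31) and Got1 (37.2 ± 3.4), each clear of its neighbours. Prodh (2.30 ± 0.527), Gpt2 (0.948 ± 0.285), Pycr1 (0.813 ± 0.355) and Gls2 (0.524 ± 0.377) came last, and the last 3 overlapped. In Eμ-Myc, Glud1 (183 ± 5.74), Glul (168 ± 26.7) and Got2 (165 ± 9.67) were at like levels, and the range of Glul covered those of the other two. Aldh18a1 (122 ± 15.3) and Got1 (100 ± 6.5) followed and overlapped with each other. Prodh (16.6 ± 1.77) and Pycr1 (7.46 ± 1.27) were each clear of their neighbours, and Gpt2 (2.53 ± 0.375) overlapped with Gls2 (2.00 ± 0.667). Without PRPS2 the SD was larger than in Eμ-Myc for 7 of the 9 and smaller for Glud1 and Glul. Glud1 (188 ± 3.46), Got2 (182 ± 63), Glul (163 ± 10.3), Aldh18a1 (138 ± 40.7) and Got1 (104 ± 35) each overlapped with the next. Prodh (16.4 ± 6.85), Pycr1 (7.59 ± 2.99), Gls2 (4.07 ± 3.36) and Gpt2 (3.02 ± 0.942) followed, also overlapping in turn.

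**Figure D3:**
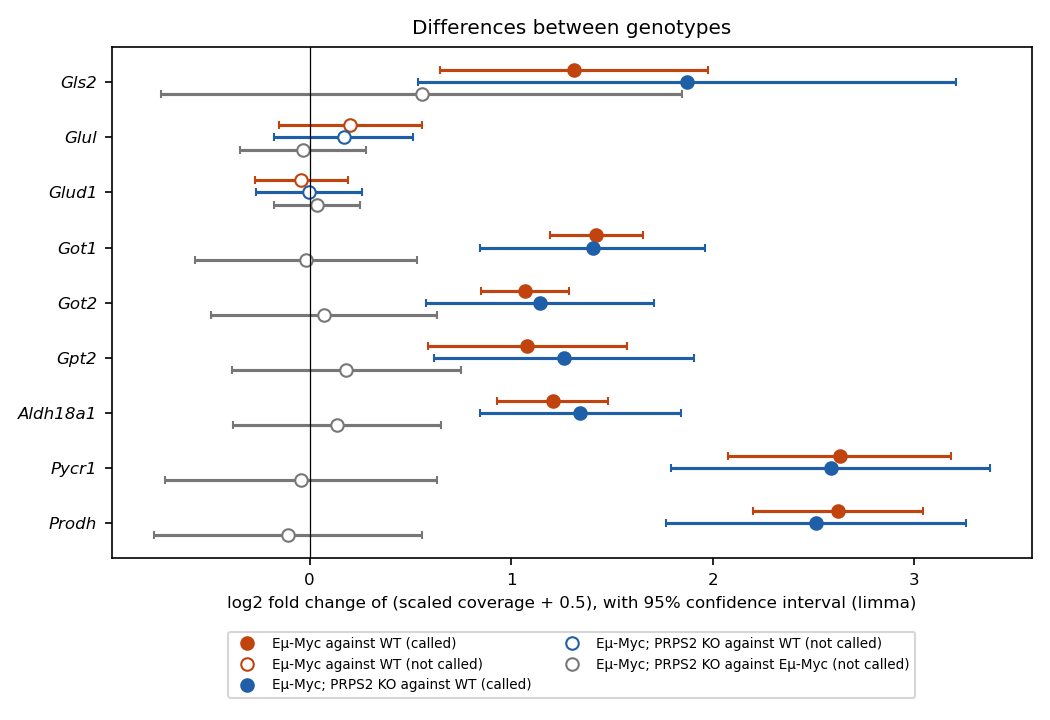
Log2 fold changes of the 9 enzymes with 95% confidence intervals from limma (horizontal axis, difference of log2(scaled coverage + 0.5)) in the 3 comparisons. Against WT, 7 intervals lie above 0 in both transgenic groups; for the knockout group against Eμ-Myc all 9 intervals span 0.

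The knockout group was next compared with the other groups. Against WT, 7 of the 9 enzymes were called, all higher, where 29.1% of the 12692 genes tested were called, 20% higher and 9.04% lower. Gls2, Gpt2 and Pycr1 passed the filter here through the knockout libraries, and of the 6 enzymes above 1 in every library 4 were called. These are the 7 genes named above for Eμ-Myc, and both comparisons use the same WT libraries. The median log2 fold change was 1.34 over the 9 enzymes and -0.01 over all genes. Of the 7, Gls2 overlapped with WT and the other 6 did not, and 22.9% of all genes were higher without overlap. Got1, Pycr1, Aldh18a1 and Prodh were called in each of the 8 fits that left out 1 library. Got2 lost its call without any single WT library and without knockout library 3 or 4. Gpt2 lost it without WT library 2, 3 or 4 and without knockout library 3 or 4. The number of enzymes called therefore ran from 4 to 7, and the count over all genes from 676 to 6607, against 3689 with every library.

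Against Eμ-Myc, none of the 9 enzymes was called in the knockout group by limma, and none had an unadjusted p below 0.05. Of the 12535 genes tested, 1 was called (0.00798%), Prps2 itself with a log2 fold change of -3.79 (adjusted p = 1.86e-05, limma). Over all genes 0.957% had an unadjusted p below 0.05. That is less than the share of 0.05 that such p-values give when no gene differs, so the lack of calls does not show equal levels. Log2 fold changes were -0.02 for Got1 (interval -0.57 to 0.53), 0.07 for Got2 (interval -0.49 to 0.63) and 0.14 for Aldh18a1 (interval -0.38 to 0.65). For Prodh the value was -0.11 (interval -0.77 to 0.56), for Pycr1 -0.04 (interval -0.72 to 0.63) and for Gpt2 0.18 (interval -0.39 to 0.75). Gls2 had the widest interval, from -0.74 to 1.85 around 0.56. The intervals of Glul (-0.35 to 0.28) and Glud1 (-0.17 to 0.25) were the narrowest. For 7 of the 9, the interval reached 0.53 or more at its upper end and -0.38 or less at its lower end.

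The knockout libraries differed widely among themselves. Gls2, Got1, Got2, Gpt2, Pycr1, Aldh18a1 and Prodh were all lower in libraries 1 and 2 than in libraries 3 and 4. The mean of libraries 3 and 4 divided by that of libraries 1 and 2 was 5.29 for Gls2, 2.10 for Prodh, 1.96 for Pycr1, 1.84 for Got2, 1.79 for Got1, 1.71 for Gpt2 and 1.66 for Aldh18a1. For Glul it was 1.01 and for Glud1 0.970. The transcriptome was split in the same way: of all genes tested, 45.2% were lower and 42.1% higher in libraries 1 and 2 than in libraries 3 and 4, together 87.3%. Got1, Got2, Pycr1 and Prodh went below every Eμ-Myc library in libraries 1 and 2 and above every Eμ-Myc library in libraries 3 and 4, as did 16.6% of all genes. The median SD of log2 values over the 9 enzymes was 0.52 in the knockout group, 0.17 in Eμ-Myc and 0.27 in WT, beside 0.38, 0.21 and 0.22 over all genes. Myc itself ran 1116, 1720, 3003 and 3267 in knockout libraries 1 to 4, and T cell, NK cell and myeloid markers ran the other way as given above. The part of these differences in the enzymes' values was not tested.

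**Figure D4:**
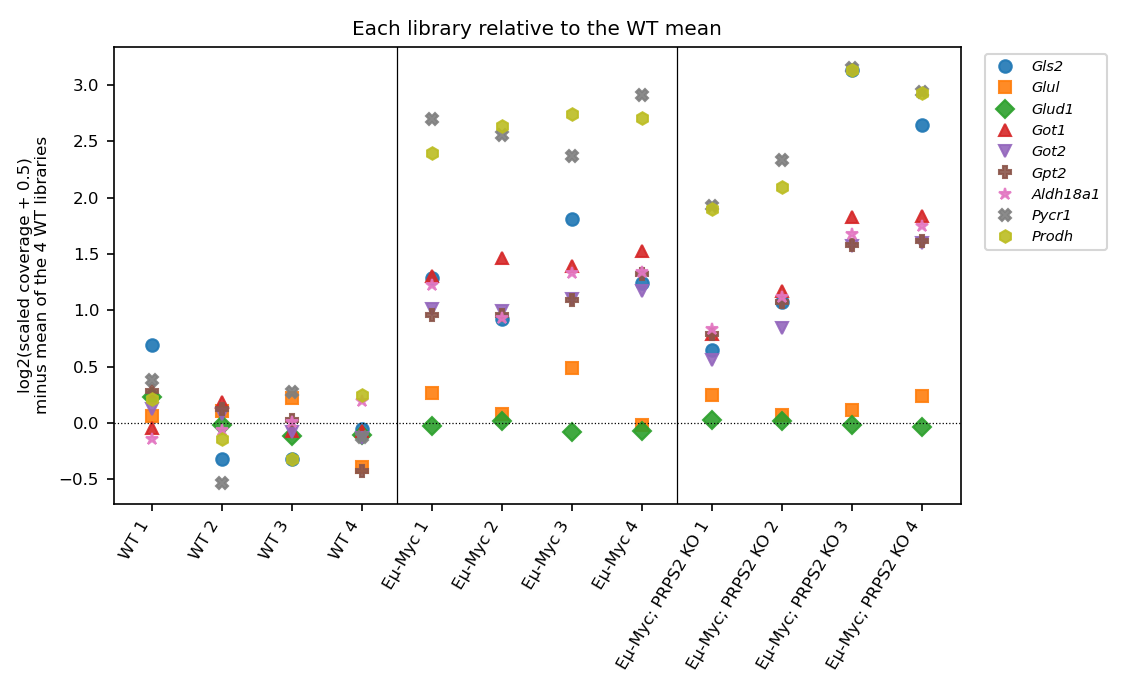
Level of each enzyme in each of the 12 libraries (horizontal axis) as its log2(scaled coverage + 0.5) minus the mean of the 4 WT libraries (vertical axis); each symbol is 1 enzyme. The points of 7 enzymes are lower in knockout libraries 1 and 2 than in libraries 3 and 4, and Glud1 stays near 0.

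The sign of most values against Eμ-Myc turned with the knockout libraries kept. Without libraries 1 and 2 the log2 fold changes were 1.57 for Gls2, 0.41 for Got1, 0.51 for Got2 and 0.51 for Aldh18a1. Without libraries 3 and 4 the same genes had -0.46, -0.44, -0.37 and -0.23. These pairs of libraries were set apart by their own values, so the figures are descriptions with no test. Knockout libraries 3 and 4 were also the closest pair within any group of the series, at a median difference of 0.0706 on the log2 scale. Eμ-Myc libraries 3 and 4 came next, at 0.0917. Whether knockout libraries 3 and 4 are separate could not be tested. Weights that limma gave each library by its fit to the group also favoured libraries 3 and 4. They were 0.0840 and 0.130 for knockout libraries 1 and 2, and 3.21 and 7.94 for libraries 3 and 4. With them 6 of the 9 enzymes were called higher in the knockout group, Prodh had a log2 fold change of 0.29 (adjusted p = 0.0536), and 59.6% of all genes were called.

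Genes whose level followed each enzyme most closely over the 12 libraries were found by the SD of the log2 ratio, among 11792 candidates. Most enzymes had near neighbours outside the group of 9. For Got1 they were Hnrnpab (SD 0.06), an RNA-binding protein, and Tcp1 (0.07), a chaperonin subunit, and for Got2 Mgme1 (0.06), a mitochondrial exonuclease, and Ywhae (0.06), a 14-3-3 protein. Aldh18a1 was closest to Ddx21 (0.07), an RNA helicase of ribosome synthesis, and Paxip1 (0.09). Prodh was closest to Asf1b (0.14), a histone chaperone, and Smyd2 (0.16), and Pycr1 to the cell division genes Cdca2 (0.19) and Foxm1 (0.22). Gpt2 was closest to Slc25a13 (0.13), the mitochondrial aspartate-glutamate carrier, and Pgam1 (0.14), a glycolytic enzyme, just ahead of Got2 (0.15). Glul was closest to Aco1 (0.11) and Plbd2 (0.12), Glud1 to Spop (0.06), and Gls2 to Mt1 (0.26), a metallothionein, and Krt18 (0.31). These are descriptions over libraries that share 3 group levels.

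Other enzymes of glutamate and proline metabolism were mixed. Of 16 listed, 15 were in the files and 9 were tested, of which 4 rose and 2 fell in Eμ-Myc against WT, with a median log2 fold change of 0.19. Over all genes 54.9% were called, 29.9% higher and 25% lower. The call of Oplah, one of the 2 that fell, was lost in 7 of 8 fits without 1 library (adjusted p up to 0.0863). Psat1, the phosphoserine aminotransferase that uses glutamate to make serine, went from 57.2 ± 5.04 to 263 ± 54.7 (log2 fold change 2.17, adjusted p = 5.33e-06). Pycrl, the cytosolic proline reductase, rose by 1.34 (adjusted p = 5.71e-05), and Oat, ornithine aminotransferase, by 0.80 (adjusted p = 8.71e-04). Gad1, a glutamate decarboxylase, fell by 1.05 (adjusted p = 0.00585), a call lost when all 12 libraries shared a single fit (adjusted p = 0.0678). Aldh4a1, the enzyme that follows Prodh in proline breakdown, was 20.3 ± 1.12 in WT and 16.7 ± 0.8 in Eμ-Myc and was not called (log2 fold change -0.27, adjusted p = 0.0624), though it was called lower under median-of-ratios and total coverage scaling.

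Enzymes that use glutamine as a nitrogen donor were called in 9 of 9 tested, 6 higher and 3 lower, with a median of 1.55, where 54.9% of all genes were called. Ctps, which makes CTP, went from 37.3 ± 5.36 to 176 ± 16.9 (log2 fold change 2.22, adjusted p = 2.37e-06). The pyrimidine enzyme Cad rose by 1.78, the purine enzymes Ppat and Gmps by 1.58 and 1.09, with adjusted p of 2.89e-05, 4.70e-05 and 6.96e-05. The 3 that fell, Gfpt1 of hexosamine synthesis (-0.68), Ctps2 (-0.40) and the NAD enzyme Nadsyn1 (-0.42), were named because they were the whole of a small count. The call of Gfpt1 was lost in the fit of all 12 libraries (adjusted p = 0.0574).

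Carriers of glutamine and other amino acids at the plasma membrane rose in 6 of 8 tested, with a median of 1.08, where 29.9% of all genes were called higher. Slc7a5, the light chain of the large neutral amino acid exchanger, rose by 2.20 (adjusted p = 8.22e-06) and Slc1a4 by 2.10 (adjusted p = 2.37e-05). Slc1a4 was below 1 in every WT library, from 0.31 to 0.48, so it passed the filter through the Eμ-Myc libraries alone and was tested in 4 of the 8 fits without 1 library. Slc1a5, the main sodium-coupled glutamine carrier, went from 175 ± 25.4 to 375 ± 24.5 (log2 fold change 1.10, adjusted p = 6.63e-05), and Slc7a6 rose by 1.15 (adjusted p = 2.13e-04). Of these 6, Slc38a5 had overlapping groups. Its call was lost in 6 of 8 fits without 1 library (adjusted p up to 0.119) and with median-of-ratios or total coverage scaling. Partners of Got1 and Got2 in the malate-aspartate shuttle and the mitochondrial glutamate carriers rose in 3 and fell in 2 of 6 tested, with a median of 0.38, beside 29.9% higher and 25% lower over all genes. Mdh1 and Mdh2, the cytosolic and mitochondrial malate dehydrogenases, rose by 0.90 and 0.68 (adjusted p = 5.15e-04 and 7.73e-04). The aspartate-glutamate carriers went opposite ways: Slc25a13 rose by 1.16 (adjusted p = 2.31e-04) and Slc25a12 fell by 0.53 (adjusted p = 0.00214). The other gene that fell, the carrier Slc25a11 (-0.45), had overlapping groups and lost its call without Eμ-Myc library 3 (adjusted p = 0.0503).

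**Figure D5:**
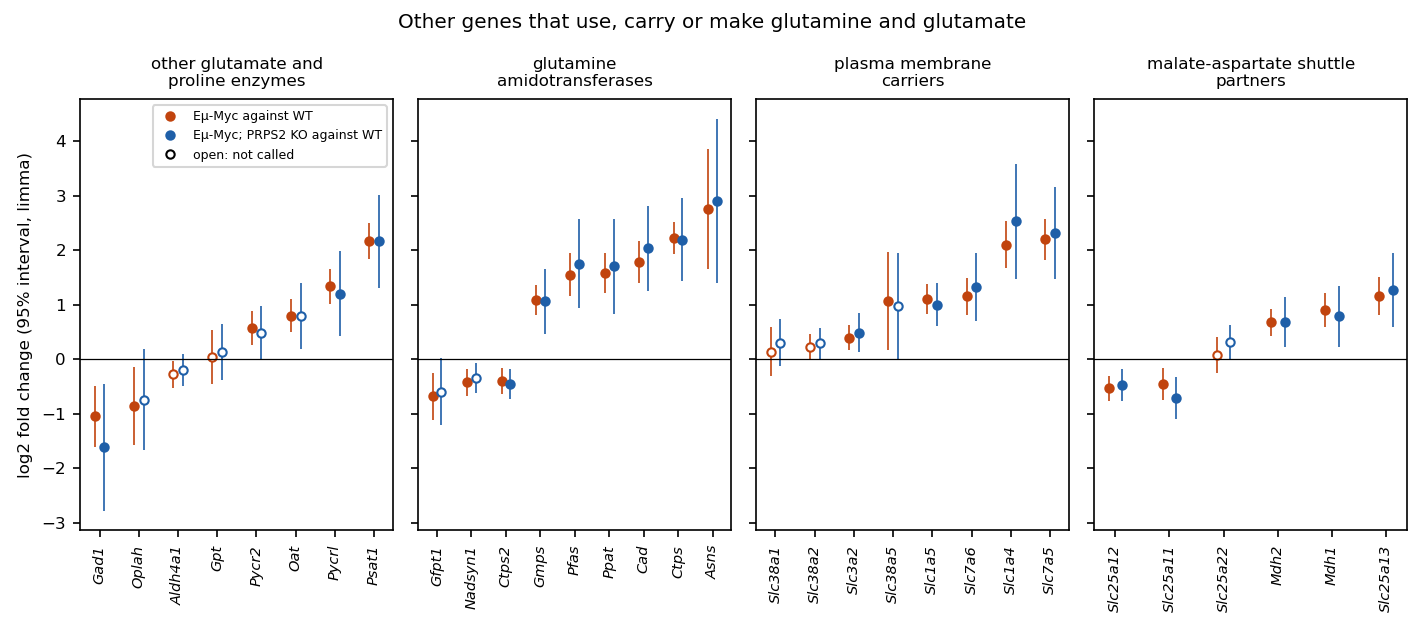
Log2 fold changes with 95% confidence intervals from limma (vertical axis, difference of log2(scaled coverage + 0.5)) of genes tested on the 4 lists, for Eμ-Myc and the knockout group against WT; filled points were called and open points were not. Amidotransferases and plasma membrane carriers lie mostly above 0, and the other lists lie on both sides.

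For the knockout group against WT, the same lists gave 2 higher and 1 lower of 9 other enzymes, 6 higher and 1 lower of 9 amidotransferases, 5 higher of 8 carriers and 3 higher and 2 lower of 6 shuttle genes. Over all genes 29.1% were called, 20% higher and 9.04% lower. When single libraries were left out, the numbers called ran from 1 to 6, 2 to 9, 2 to 4 and 0 to 5. Against Eμ-Myc no gene on these lists was called, and none had an unadjusted p below 0.05. Library quality weights gave 7 of 9, 7 of 9, 5 of 8 and 4 of 6 calls, where 59.6% of all genes were called.

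Other genes share bases with some of the 9. Exons of Gls2 and Glul overlap by 97 and 116 bases with the antisense genes Spryd4 and Teddm2, those of Got2 by 434 bases with the antisense model Gm45760, and those of Glul by 93 bases with Mir8114 on the same strand. Pseudogenes of Glud1 and Got2 exist in the mouse genome. Libraries were directional, but whether strand or shared reads were treated in counting is not given in the sources used here, so the coverage of these genes is uncertain to that extent.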

How the data were processed

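Libraries of polyadenylated RNA were directional, per the labels. Per the file names and values, the authors deposited mean coverage per gene, a signal rounded to 1 decimal, for the same 24982 genes in each library. The submitters' processing notes name mm10, DESeq and R 4.3.3 without their roles. The aligner, the counting step and the annotation are not given in the sources used here. Since 91.6% of values above 0 were not whole numbers, the deposited coverage was not treated as counts, and an alternative with edgeR was not run.

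Factors per library came from unweighted trimmed means of log ratios against the mean profile (trimming, per end, 30% of ratios and 5% of mean values). A gene was tested if 4 or more of the 8 libraries reached a scaled coverage of 1, with limma 3.58.1 in R 4.3.3 (trended, robust empirical Bayes) on log2(scaled coverage + 0.5). Tests were two-sided, with Benjamini-Hochberg adjustment over all genes tested and calls at an adjusted p under 0.05. Tables and figures used Python 3.11.15, numpy 2.4.6, pandas 2.3.3 and matplotlib 3.10.9. Gene positions are from GENCODE M21.

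All 9 enzymes were named, with Prps2 and Myc, from each of 4 lists the 4 genes with the smallest adjusted p (Eμ-Myc against WT), and the 2 nearest patterns per enzyme. Gpt, Aldh4a1, Oplah, Slc38a5, Slc25a11 and the 3 amidotransferases that fell were named outside this rule, after their values were seen. The enzymes and lists were chosen with earlier results of these data known. Some genes under these rules are not reported here.

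The labels number replicates 1 to 4 in each group. Deviations of same-numbered libraries correlated at 0.639, 0.187, 0.242 and 0.597 between the knockout group and Eμ-Myc. Correlations of differently numbered libraries were not computed, so these values cannot show whether libraries were paired by number. A fit with the replicate number as a block was made as an alternative, and the values printed are from the fit without it. The correlations were 0.224, -0.097, 0.250 and 0.127 between Eμ-Myc and WT and 0.390, -0.408, 0.135 and -0.0627 between the knockout group and WT. Not every pair was over 0.1, so these numbers were not taken to pair the libraries. Knockout libraries 3 and 4 had the smallest median difference of the 18 pairs within groups, 0.0706 on the log2 scale, and Eμ-Myc libraries 3 and 4 the next, 0.0917. Whether knockout libraries 3 and 4 are separate could not be tested without counts, and both were kept.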

Additional observations from a re-analysis of the deposited data

Results flagged for a closer look

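Among 53 genes of the enzyme set, the 4 lists and the checks, 159 groups of 4 libraries were searched for a library far from the other 3, and 9 were found. Chance gives about 1 in 20. Got1 was the only one of the 9 enzymes among them: WT library 2 had a scaled coverage of 42.3, where the other WT libraries had 35.3 to 35.9.

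Another 2 genes stood out in WT library 1. Asns, asparagine synthetase, was at 15.7 there and 2.48 to 4.35 in the other WT libraries, and Slc7a11, the cystine-glutamate exchanger, was at 2.62 against 0.29 to 0.67. Gls2 was also highest in that WT library, without meeting the same criterion.

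The other 6 were within about 1 unit of scaled coverage, near the rounding step of the values. Aldh5a1 was at 0.893 in WT library 4, where the others had 0.380 to 0.385, and at 0.774 in knockout library 3, where the others had 0.516 to 0.552. Abat was at 0.552 in knockout library 4 against 0.206 to 0.221. Prodh2 was at 0.101 in Eμ-Myc library 3 and at 0 in the other Eμ-Myc libraries. Gfpt2 was at 0 in knockout library 3 against 0.103 to 0.110, and Slc25a18 at 0.103 in knockout library 1 against 0.415 to 0.442.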

How the results depend on the processing

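In Eμ-Myc against WT, 156 of the values recomputed for single enzymes kept their direction and their side of the threshold. The exceptions were Gls2 in the fit of all 12 libraries, and Glud1, which ran from -0.078 to 0.037 when leaving out single libraries, with the sign turned without WT library 1. The 7 calls were made in each of the fits without 1 library, and 3 were left with a filter on a mean of at least 10, since fewer enzymes were tested. All genes called ran from 5761 to 6786 when leaving out a library.

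In the knockout group against Eμ-Myc, library quality weights called 7470 genes and 6 enzymes, against 1 and 0. Leaving out knockout libraries 1 and 2, chosen after seeing the data, called 3489 genes and 4 enzymes, and leaving out libraries 3 and 4 called 507 genes and 0 enzymes. Since these libraries were set apart by their values, neither count is a test of the genotypes. Leaving out any single library called 1 gene and 0 enzymes. Several signs turned. Got1 became 0.0015 with total coverage scaling. With weights, Got1, Pycr1 and Prodh became 0.40, 0.43 and 0.29, and without knockout libraries 1 and 2 they became 0.41, 0.42 and 0.41. Without knockout libraries 3 and 4, Got2, Gls2, Gpt2 and Aldh18a1 became -0.37, -0.46, -0.15 and -0.23. Over fits that left out single libraries, Got1 ran from -0.16 to 0.19, Pycr1 from -0.23 to 0.18, Prodh from -0.31 to 0.098, Got2 from -0.081 to 0.27 and Glul from -0.11 to 0.062.

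In the knockout group against WT, all genes called were 5934 in the fit of 12 libraries, 10490 with weights, 8557 without knockout libraries 1 and 2, 1296 without libraries 3 and 4, and 676 to 6607 without single libraries. Enzymes called were 4 to 7 without single libraries, 3 with the filter on a mean of at least 10, 6 without knockout libraries 1 and 2, and 5 without libraries 3 and 4, where Gls2 no longer passed the filter in either. Gls2 also lost its call with a pseudocount of 2 (adjusted p = 0.0576) and with no filter (0.0544). Glud1 became 0.014 with weights and 0.020 without knockout libraries 3 and 4, and ran from -0.039 to 0.076 without single libraries. The cause of these shifts was not tested.

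The replicate block changed no call in the knockout group against Eμ-Myc (1 gene, 0 enzymes). Against WT the block gave 1949 genes for the knockout group, and Gls2 and Gpt2 were not called (adjusted p = 0.0776 and 0.0590). The numbers were not taken to pair the libraries in any comparison. The pseudocount of 2 moved the difference in the Gls2 to Glul ratio between Eμ-Myc and WT to 0.46. Rounding to 1 decimal limits values below 1, and with no read counts no detection limit can be given.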

Other observations

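Several relatives of the 9 enzymes were at or near 0 in these B cells. Got1l1, a testis relative of the aspartate aminotransferases, was listed at 0 in all 12 libraries. Prodh2, which breaks down hydroxyproline, was listed above 0 in a single library, at 0.101. Gad2, the other glutamate decarboxylase, was at most 0.095 in any library.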
